A study of Mus musculus with 27 samples.

Results

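Integrins, cadherins, syndecans and the other receptors by which cells hold to matrix and to each other were followed in murine neural crest explants cultured with or without retinoic acid (RA), a derivative of vitamin A that binds nuclear receptors. Members were the probe sets that name 1 gene whose symbol belongs to the integrin alpha (Itga), integrin beta (Itgb), cadherin (Cdh), protocadherin (Pcdh), Icam, Ncam, syndecan (Sdc) or neuropilin (Nrp) series, or is Alcam, Mcam, L1cam, Nrcam, Chl1 or Cd44. The pattern was met by 75 of the 12422 probe sets tested, and the probe set with the highest mean over all arrays stood for each gene, which left 49 of 8251 named genes. They comprised 12 integrin alpha chains, 6 integrin beta chains, 13 cadherins, 2 protocadherins, 10 receptors of the immunoglobulin family, Cd44, 4 syndecans and 1 neuropilin.

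Dorsal neural tubes of mouse embryos were bisected, and the side kept as control was set against the side given RA at 1e-06 M in ethanol. Total RNA went onto 27 Affymetrix MG_U74Av2 arrays, with 3 arrays for each arm after 6 h and again after 12 h of exposure, 4 for each arm after 24 h, and 4 controls beside 3 RA arrays after 48 h. For the 6 h exposure, RA was added after a night of culture on fibronectin, a ligand of many integrins, in medium with 10% horse serum. Strain and embryo age are not given in the sources used here, nor is the dose of ethanol in the controls, and no label says whether arrays of one group came from separate explants, so the p values reflect array-to-array spread, which may be technical.

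Levels are log2 RMA intensities, in which 1 unit is a doubling, and they are comparable between arrays for 1 probe set but not between probe sets. The number of arrays limits the precision. Of 12 measured neural crest markers 2 were dimmer than the 25th percentile of the array, 5.02 on average. The mean level of the 12 was 7.59 to 7.71 in the 6 h controls and 7.01 to 7.16 in the 48 h controls. Lower at 48 h were 5, Pax3, Msx1, Msx2, Zic1 and Tfap2a, and 0 were higher, where 5.29% of all probe sets were lower. The differences of the 12 ran from -1.60 to 0.46, with a median of -0.55. Arrays of 6 h and of 48 h were scanned on days of their own, so time and scan day cannot be told apart in any comparison with them. The arrays numbered 2 of both arms at 24 h were scanned on a day apart from the other 24 h arrays. One array, control 3 at 48 h, is a control by its title and RA treated by its description, and the title was followed.

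Integrins are pairs of an alpha and a beta chain that bind matrix proteins such as fibronectin, laminin and vitronectin. Cadherins bind the same cadherin on a neighbouring cell, and neural crest cells are known for changing the cadherins they carry when they leave the neural tube and migrate. Syndecans are cell surface proteoglycans that act beside integrins, and the receptors of the immunoglobulin family bind their like or other receptors on cells. Neuropilin 1 is the receptor of class 3 semaphorins and a coreceptor of vascular endothelial growth factor, and its ligands guide crest cells.

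The promoters of 3 members are shown because Sdc4 and Itgb5 carried the clearest change with culture time, and Mcam, a receptor first known from melanoma, was one of the members lower with RA when the arrays were paired. Each sequence covers 250 bases before to 50 after the gene start in RefSeq, build GRCm38.p6, written 5′ to 3′ on the strand of the gene, with Sdc4 at chr2:164443139-164443438 on the minus strand, Itgb5 at chr16:33829415-33829714 on the plus strand and Mcam at chr9:44134408-44134707 on the plus strand. Capitals mark AGGTCA, a core that retinoid receptors are known to bind, GGGCGG, the GC box of Sp factors, and CACCTG, an E-box of Snail factors, each on either strand.
Sdc4: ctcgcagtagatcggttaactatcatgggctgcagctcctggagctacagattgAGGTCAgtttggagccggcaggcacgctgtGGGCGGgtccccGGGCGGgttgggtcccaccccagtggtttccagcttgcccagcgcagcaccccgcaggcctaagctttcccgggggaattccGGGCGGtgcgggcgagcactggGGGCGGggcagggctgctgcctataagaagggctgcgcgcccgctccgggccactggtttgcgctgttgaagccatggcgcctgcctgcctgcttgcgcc
Itgb5: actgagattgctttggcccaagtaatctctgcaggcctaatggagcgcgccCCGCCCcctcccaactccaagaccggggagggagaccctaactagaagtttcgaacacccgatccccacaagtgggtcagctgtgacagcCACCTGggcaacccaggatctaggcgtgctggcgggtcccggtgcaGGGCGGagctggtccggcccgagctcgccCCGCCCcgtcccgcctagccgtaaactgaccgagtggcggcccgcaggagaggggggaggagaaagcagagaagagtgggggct
Mcam: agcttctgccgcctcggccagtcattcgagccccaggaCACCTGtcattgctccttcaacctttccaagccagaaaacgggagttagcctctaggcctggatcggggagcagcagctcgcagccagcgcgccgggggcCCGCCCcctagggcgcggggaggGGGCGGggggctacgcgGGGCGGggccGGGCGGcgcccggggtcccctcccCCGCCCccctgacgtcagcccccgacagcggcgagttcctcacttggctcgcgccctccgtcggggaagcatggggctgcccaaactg
Sdc4 held AGGTCA once and GGGCGG 4 times, Itgb5 held GGGCGG 3 times and CACCTG once, and Mcam held GGGCGG 5 times and CACCTG once. Of 30 members with a promoter window 2 held AGGTCA, 23 held GGGCGG and 7 held CACCTG, where the shares of all 32851 windows were 16.3%, 35.7% and 20.2%. A member counted where any of its windows held the sequence, while the shares are of single windows, so the counts and shares are not like for like. The marked stretches and counts are matches of letters, which neither mark a bound site nor bear on why a level changed.

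Over all members, 14 had a mean below the 25th percentile of the array, 18 lay between it and the median, 9 between the median and the 75th percentile, and 8 above it. The 8 bright members were Itgb1 at a mean of 12.20, Itgav at 10.24, Mcam at 9.59, Itgb5 at 9.24, Ncam1 at 9.08, Cdh2 at 9.02, Sdc2 at 8.92 and Nrp1 at 8.52. Itgb1 is the beta chain shared by most matrix integrins, and its arrays spanned only 11.75 to 12.54. Like those of Itgav, Itga8 and Sdc1, the Itgb1 probe set carries the suffix by which the maker marks probes shared with other sequences. A second Itgb1 probe set had a mean of 9.90. Dim signal limits what can be said of Cdh8, Cdh9, Cdh10, Cdh16, Chl1, Icam1, Ncam2, Cd44, Itga2, Itga4, Itgae, Itgam, Itgb2 and Itgb3. RMA gives no detection call, so their values are given without a statement that the transcript was present.

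**Figure D1:**
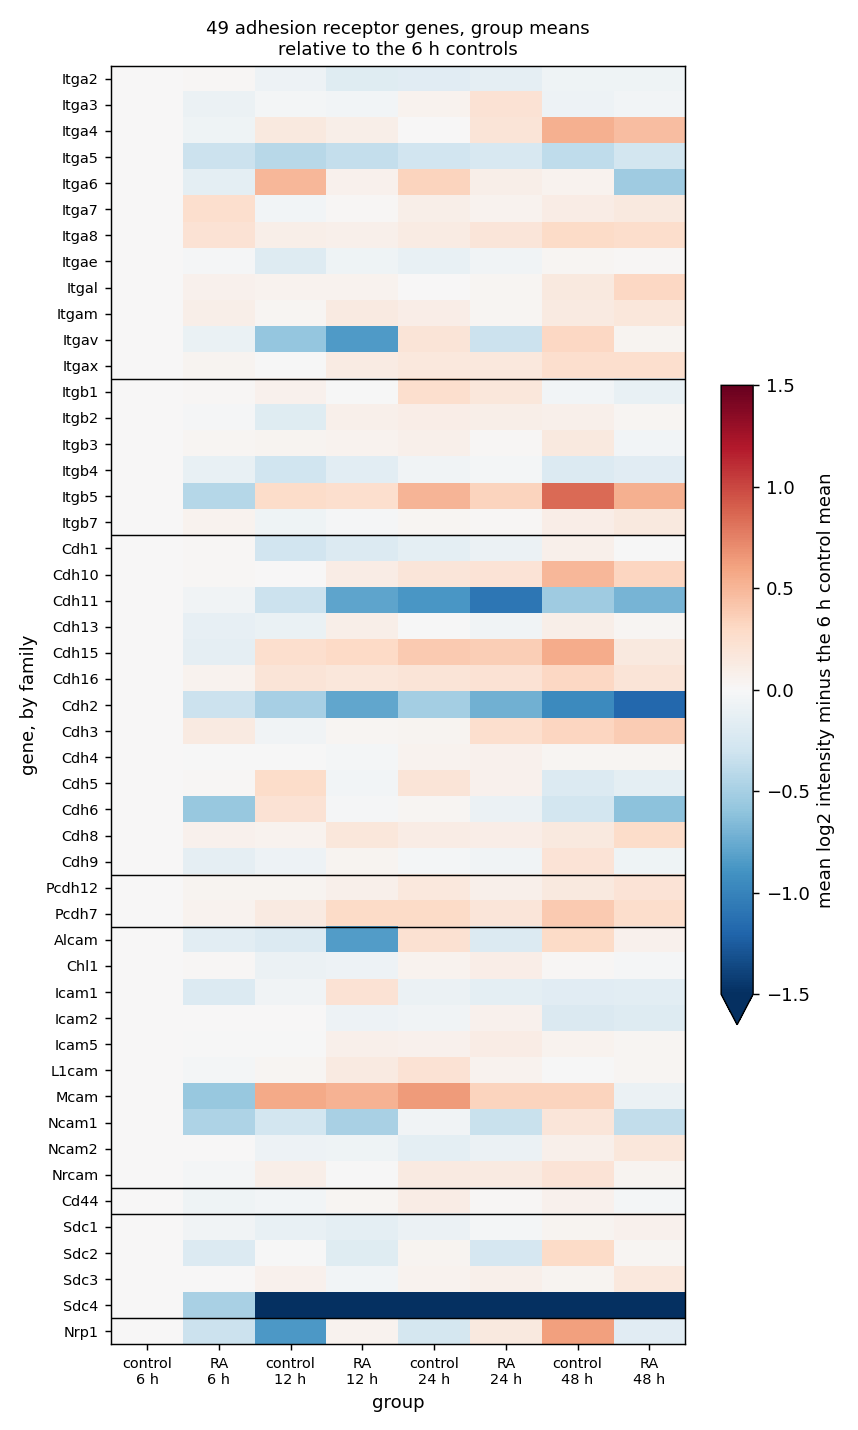
Group means of the 49 genes by family, as log2 intensity minus the mean of the 6 h controls, for control and RA groups at 6, 12, 24 and 48 h. Sdc4 is the darkest row from 12 h on in both arms, beyond the end of the colour scale, Cdh2 and Cdh11 have lower means at later times, and Itgb5 has higher ones, but of these only Sdc4 and Itgb5 passed in a time comparison.

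Sdc4 differed more than any other member between the 12 and 6 h controls. Sdc4, which encodes syndecan 4, a component of focal adhesions, read 8.55, 9.07 and 9.31 in the 6 h controls and 6.28, 5.83 and 5.98 in the 12 h controls. The 2 groups did not overlap, and the difference was -2.95 (SE 0.46), a level 7.70-fold lower at 12 h (limma adjusted p = 0.000537). The RA arrays read 8.91, 7.98 and 8.58 at 6 h and 5.88, 5.99 and 5.90 at 12 h, so both arms were high at 6 h and low at 12 h.

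At 24 h the Sdc4 controls read 6.35, 7.76, 6.16 and 6.29 and the RA arrays 5.62, 8.01, 6.28 and 6.24, where the high value of each arm is its array number 2, from the separate scan day. At 48 h the controls read 6.89, 7.91, 6.83 and 6.52 and the RA arrays 6.59, 7.09 and 6.28. All of these lay below all 6 h arrays of the same arm except RA 2 at 24 h. Against 6 h, Sdc4 was 3.84-fold lower in the 48 h controls (log2 difference -1.94, SE 0.43, adjusted p = 0.00482) and 3.57-fold lower in the 48 h RA arrays (-1.84, SE 0.46, adjusted p = 0.00912). From 12 to 24 h and from 24 to 48 h the control differences of 0.61 and 0.39 did not pass (adjusted p = 0.844 and 0.749). The 12 against 6 h call held under each of 10 other settings (adjusted p at most 0.00698), and without RA 6 h replicate 1 the RA call from 6 to 48 h was lost (adjusted p = 0.0577).

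**Figure D2:**
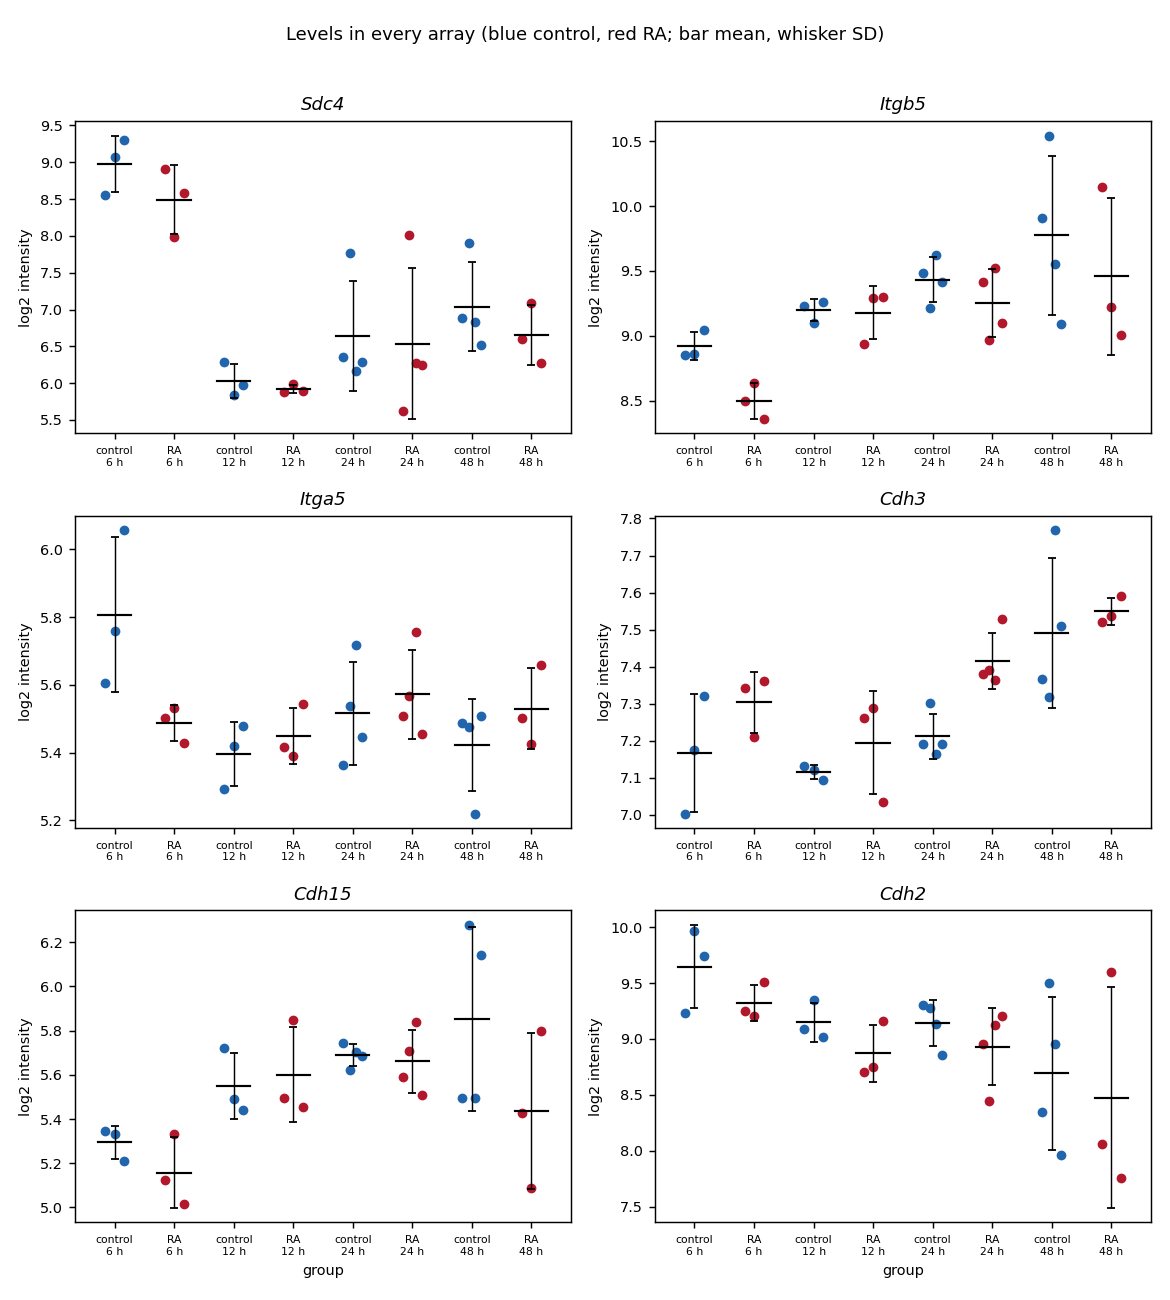
Log2 intensity (vertical axis) of 6 genes in every array, by group, with the mean as a bar and the SD as a whisker. Sdc4 stands near 9 at 6 h in both arms and near 6 at 12 h, Itgb5 is higher at 48 h with a wide spread between arrays, and Cdh2 spreads from 7.76 to 9.60 among the RA arrays at 48 h.

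Of 12 measured markers of surface epithelium 3 were also lower at 12 h than at 6 h, namely Cldn6 (-2.21, adjusted p = 0.00067), Cldn7 (-1.81, adjusted p = 0.00702) and Epcam (-0.78, adjusted p = 0.0114). The median difference of the 12 was 0.01, with a range from -2.21 to 0.80, and 2.78% of all probe sets were lower. The mean level of that list was 7.74 to 7.90 in the 6 h controls and 7.35 to 7.63 in the 12 h controls, and 2 of its 12 genes were dim in each group. Among 8 measured endothelial markers 3, Eng, Tek and Emcn, were higher and 0 lower, where 2.65% of all probe sets were higher. Their list had a median difference of 0.56, with a range from -0.42 to 1.39. Its mean level was 6.55 to 6.70 in the 6 h controls and 6.94 to 7.43 in the 12 h controls. In RNA of whole explants, fewer cells of a type and less RNA per cell cannot be told apart, and the part of these cell types in the Sdc4 difference was not tested.

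The other syndecans stayed near their 6 h level. Sdc1 had control means of 6.74, 6.63, 6.65 and 6.77 at 6, 12, 24 and 48 h, Sdc2 of 8.95, 8.95, 8.98 and 9.24, and Sdc3 of 5.84, 5.90, 5.88 and 5.87. None of the 3 passed in a time comparison, so of 4 syndecans 1 was lower at 48 h than at 6 h and 0 were higher. The Sdc1 probe set is marked as sharing probes with other sequences. A second Sdc1 probe set without that mark had a mean of 6.59, and its differences are not given here.

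In the first step of culture, from 6 to 12 h, 2 of 49 members passed, both lower, or 4.08%, where 5.43% of all probe sets passed. The second was Itga5, the alpha chain of the main fibronectin receptor, which read 5.61, 5.76 and 6.06 in the 6 h controls and 5.29, 5.42 and 5.48 in the 12 h controls (-0.41, SE 0.12, adjusted p = 0.0394). These groups did not overlap, as for 16.4% of all probe sets in that direction, and the 6 h RA arrays read 5.50, 5.53 and 5.43, which overlaps the 12 h controls. Without 6 h control 3 the call was lost (adjusted p = 0.257), as it was without 6 h control 2 or any 12 h control, and with scan day as a random block (adjusted p = 0.228). From 12 to 24 h no member passed in limma and 2 had an unadjusted p below 0.05, where 0.0564% of all probe sets passed and 6.57% had such a p. From 24 to 48 h no member passed and 6 had an unadjusted p below 0.05, where 1.08% of all probe sets passed and 11.7% had such a p.

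Over the whole course, 48 h against 6 h controls, 7 of 49 members passed, or 14.3%, against 9.52% of all probe sets. The median member difference was 0.09 and that of all probe sets 0.07, so neither the share nor the centre of the members stood far from the array as a whole. Higher were Itgb5, Cdh15, Cdh10, Cdh3 and Cdh16, and lower were Sdc4 and Itga5, by family 4 of 13 cadherins, 1 of 6 integrin beta chains, 1 of 12 integrin alpha chains and 1 of 4 syndecans. With scan day as a random block 1 of the 7, Sdc4, passed, where 4.59% of all probe sets did, and the adjusted p of the other 6 ran from 0.0644 for Itgb5 to 0.191 for Cdh3. With only these groups in the fit 1 of 49 members passed.

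Itgb5, the beta chain that pairs with the alpha V chain to bind vitronectin, read 8.85, 8.86 and 9.05 in the 6 h controls and 9.91, 10.54, 9.56 and 9.09 in the 48 h controls. The lowest 48 h control lay just above the highest 6 h control, a separation seen for 8.6% of all probe sets in that direction, and the difference of 0.85 (SE 0.25, adjusted p = 0.0299) was 1.81-fold. In the RA arrays it went from 8.50, 8.64 and 8.36 at 6 h to 10.15, 9.22 and 9.01 at 48 h, a 1.95-fold difference (0.96, SE 0.27, adjusted p = 0.0183). That call was lost without RA 48 h replicate 1 (0.62, adjusted p = 0.137), without RA 6 h replicate 1 or 3 (0.0577 and 0.0765) and with only these groups in the fit (0.109). Control means of 8.92, 9.20, 9.43 and 9.77 ran upward over the 4 times, although no single step passed. Among the fits without 1 array, the control call was lost without any 1 of the 6 h controls or without 48 h control 1 or 2, with adjusted p from 0.0045 to 0.102 over all of them. A second Itgb5 probe set gave 0.28 in controls (adjusted p = 0.188).

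Its partner Itgav had control means of 10.38, 9.80, 10.57 and 10.69 and RA means of 10.28, 9.53, 10.06 and 10.43. From 12 to 24 h the controls went from 9.95, 10.04 and 9.42 to 10.59, 10.37, 10.61 and 10.71, with no overlap, as for 7.83% of all probe sets in that direction. The difference of 0.76 (SE 0.27) did not pass with groups alone (adjusted p = 0.597). It passed when scan day was blocked (0.89, adjusted p = 0.0028), a fit in which 1.57% of all probe sets passed. Over 12 alternatives the adjusted p ran from 0.0028 to 0.593, and 3 passed. The 2 further Itgav probe sets gave 0.40 and 0.12 for the same step.

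Among the cadherins the 4 genes that were higher at 48 h were small in difference. Cdh15, M-cadherin of muscle precursors, read 5.34, 5.33 and 5.21 at 6 h and 5.50, 6.28, 5.49 and 6.14 at 48 h in the controls (0.56, SE 0.17, adjusted p = 0.0409). Beside it 2 of 9 muscle and mesoderm markers were higher, the muscle genes Myog (0.65, adjusted p = 2.72e-05) and Des (0.63, adjusted p = 0.0492). None was lower, and 4.23% of all probe sets were higher. The differences of the 9 ran from -0.79 to 0.65, with a median of 0.28. Their mean level was 6.93 to 7.09 at 6 h and 7.12 to 7.25 at 48 h, and their part in the Cdh15 difference was not tested. Cdh3, P-cadherin of epithelia, read 7.00, 7.17 and 7.32 at 6 h and 7.37, 7.32, 7.77 and 7.51 at 48 h, with an overlap at 7.32 (0.32, SE 0.10, adjusted p = 0.0390). Both genes have a second, dimmer probe set, with means of 4.32 for Cdh15 and 5.82 for Cdh3, whose differences are not given here.

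Cdh10 and Cdh16 were dim. Cdh10, a cadherin of the brain, read 4.04, 4.24 and 4.20 at 6 h and 4.41, 4.80, 4.75 and 4.71 at 48 h (0.50, SE 0.14, adjusted p = 0.0274). Cdh16, the kidney cadherin, read 3.96, 4.05 and 4.12 at 6 h and 4.30, 4.38, 4.47 and 4.24 at 48 h (0.30, SE 0.08, adjusted p = 0.0180). Each of these 4 cadherin calls was lost without 6 h control 1 or without 6 h control 2, and in the RA arrays none of the 4 passed from 6 to 48 h, with differences of 0.28, 0.24, 0.31 and 0.15 for Cdh15, Cdh3, Cdh10 and Cdh16. Whether the arms differ here was asked by the test of RA by time below.

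The cadherins best known from neural crest biology did not pass. Cdh2, N-cadherin of the neural tube, read 9.23, 9.97 and 9.74 in the 6 h controls and 8.34, 9.50, 8.96 and 7.96 in the 48 h controls (-0.96, SE 0.34, adjusted p = 0.0747), with overlap. Its RA arrays at 48 h read 8.06, 9.60 and 7.76, so that 48 h arrays of one group lay further apart than the group means. Cdh11, a mesenchymal cadherin that migrating crest cells carry in Xenopus, had control means of 6.95, 6.63, 6.08 and 6.42 (48 against 6 h -0.54, adjusted p = 0.383). Cdh6, which marks premigratory crest, had means of 6.21, 6.42, 6.24 and 5.93, and Cdh1, E-cadherin of epithelia, of 7.76, 7.48, 7.61 and 7.83. Cdh4, Cdh5, Cdh8, Cdh9 and Cdh13 also did not pass in a time comparison.

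Itga5 was the integrin alpha chain that passed from 6 to 48 h, reading 5.49, 5.48, 5.22 and 5.51 in the 48 h controls, all below the 6 h controls, as for 7.08% of all probe sets (-0.38, SE 0.11, adjusted p = 0.0273, and 0.187 without 6 h control 3). In the RA arrays the same difference was 0.04 (adjusted p = 0.892). Itga4, which pairs with the beta 1 chain to bind fibronectin and Vcam1, had control means of 4.19, 4.34, 4.20 and 4.73 and RA means of 4.12, 4.28, 4.38 and 4.65. Its 48 against 6 h differences of 0.54 in controls and 0.53 in RA arrays were near equal, and neither passed (adjusted p = 0.0530 and 0.0687). The 2 dimmer Itga4 probe sets gave 0.17 and -0.02 in controls.

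The laminin receptors Itga3, Itga6 and Itga7 and the further chains Itga2, Itga8, Itgae, Itgal, Itgam, Itgax, Itgb1, Itgb2, Itgb3, Itgb4 and Itgb7 passed in no time comparison. Itgal, Itgam, Itgax, Itgae, Itgb2 and Itgb7 are leukocyte integrins, and 0 of 9 blood and macrophage markers passed from 6 to 48 h. The mean level of those markers was 5.22 to 5.32 in the 6 h controls and 5.19 to 5.57 in the 48 h controls, with 4 of 9 dim.

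In the remaining families no member passed from 6 to 48 h. Among 10 receptors of the immunoglobulin family the smallest unadjusted p values belonged to Icam2, a ligand of leukocyte integrins (5.96 to 5.74, difference -0.22, adjusted p = 0.274), and Nrcam, a neuronal adhesion receptor (5.84 to 6.04, difference 0.20, adjusted p = 0.381). Pcdh7 had control means of 6.54, 6.68, 6.83 and 6.93 (0.39, adjusted p = 0.0790) and Pcdh12, an endothelial protocadherin, of 5.88, 5.92, 6.03 and 6.02 (0.14, adjusted p = 0.355). Cd44, the hyaluronan receptor, had control means of 4.35, 4.31, 4.47 and 4.41 (0.06, adjusted p = 0.815). The further receptors of the immunoglobulin family, Alcam, Chl1, Icam1, Icam5, L1cam, Mcam, Ncam1 and Ncam2, passed in no time comparison either.

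In the RA arrays 2 of 49 members passed from 6 to 48 h, Itgb5 higher and Sdc4 lower, or 4.08%, where 11.7% of all probe sets passed. Across the 49 members the 48 against 6 h difference had the same sign in both arms for 40, or 81.6%, where the share over all probe sets was 78.9%. Pearson's r of the 2 differences was 0.92 across members and 0.82 across probe sets. Sdc4, at -1.94 and -1.84, weighs heavily in the r across members, of which 41 lay within 0.5 of 0 in both arms. Pearson's r is here a description across genes, and the arms share scan days and the sides of the same embryos.

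**Figure D3:**
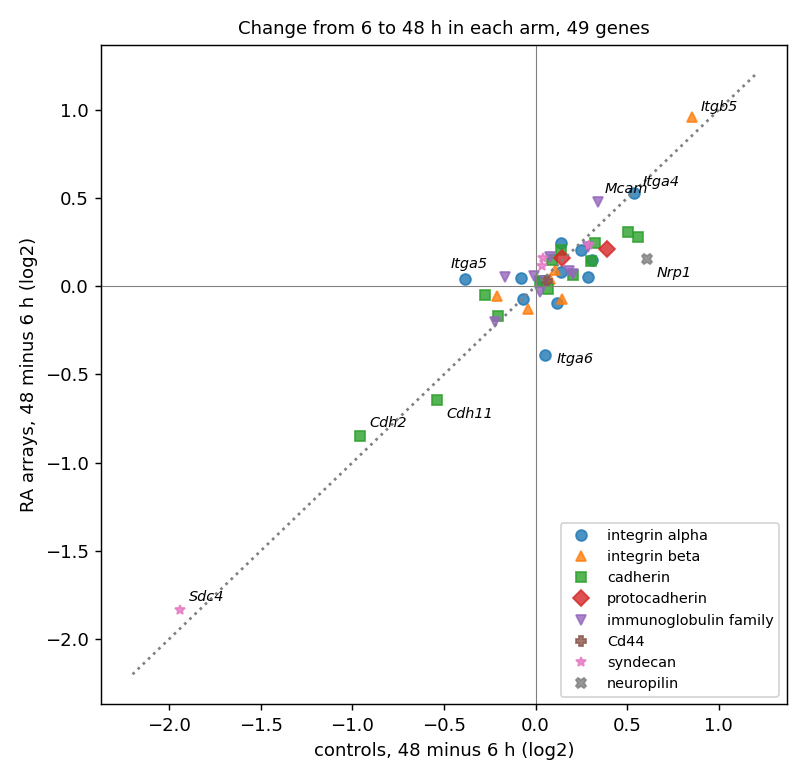
Difference in log2 intensity between 48 and 6 h in controls (horizontal) and in RA arrays (vertical) for the 49 genes, with a symbol per family and a dotted line where both are equal. Sdc4 at -1.94 and -1.84 and Itgb5 at 0.85 and 0.96 lie at the ends of the line, and 41 of the 49 genes lie within 0.5 of 0 in both arms.

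With RA, no member passed at any time in the fit with groups alone. The counts were 0 of 49 at 6, 12, 24 and 48 h, where 0.0242%, 0.0242%, 0.153% and 0.274% of all probe sets passed in limma, and 3, 3, 2 and 4 members had an unadjusted p below 0.05, where 4.29%, 2.49%, 1.84% and 3.42% of all probe sets did. For the mean over the 4 times the count was also 0, with 8 members at an unadjusted p below 0.05, where 0.564% of all probe sets passed and 5.63% had such a p. The test that the RA difference varies with time passed for 0 members, with 0 also at an unadjusted p below 0.05, where 0.0161% of all probe sets passed and 1.04% had such a p.

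The 2 arms were linked through the scanner records. Control and RA arrays of one time, scanned on one day under consecutive record numbers, gave 13 pairs, and 48 h control 2 had no partner. Their deviations from group means correlated with a median of 0.45 over the 13 pairs, against -0.20 over the 33 other combinations within a time. Deviations sum to 0 within a group, so the second median is not independent of the first. At 12 h the link was weak: the 3 pairs correlated at -0.05, 0.13 and 0.26, and the other combinations at -0.23 to 0.11. With the record pair as a block, 7 of 49 members passed for the mean RA difference, all lower and 0 higher, or 14.3%, where 2.94% of all probe sets passed and 1.67% were lower. The labels state that each embryo gave both sides, but not which arrays hold the same embryos.

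Markers of other cells were read beside these differences. The mean level of 13 neural tube and neuron markers was 7.53 to 7.62 in controls and 7.51 to 7.64 with RA at 6 h. It was 7.40 to 7.57 against 7.12 to 7.24 at 12 h and 7.37 to 7.55 against 7.19 to 7.37 at 24 h. At 48 h it was 7.06 to 7.48 against 6.88 to 7.06, with 1 dim in each group. Their median for the mean RA difference was -0.15, and 1 of 13 passed with groups alone, Fabp7 of radial glia (-0.76, adjusted p = 0.00154). All 9 smooth muscle and fibroblast markers had a mean RA difference below 0, with a median of -0.11, and 1 passed, Col1a2 of fibrillar collagen (-0.75, adjusted p = 0.00974). The median was -0.06 for 12 neural crest and 0.04 for 8 endothelial markers, and 0 of either list passed. For 9 muscle and mesoderm markers it was 0.03, with 1 higher and 0 lower. The lists of 12 epithelial, 9 blood and macrophage, and 7 Schwann cell and melanocyte markers had medians of -0.03, -0.01 and -0.03, and 0 passed. Of all probe sets 0.564% passed. The part of these cell types in the RA differences of the receptors was not tested.

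By role the 7 members that were lower with the pair block were 2 integrin alpha chains, 2 cadherins and 3 receptors of the immunoglobulin family. The averages given for them below are from the fit with the pair block. Groups alone gave -0.38 for Ncam1, -0.34 for Mcam, -0.29 for Itgav and -0.35 for Itga6. For Alcam, Cdh6 and Cdh11 that fit gave -0.36, -0.31 and -0.23. Ncam1, the neural cell adhesion molecule, had the smallest adjusted p with the pair block. At 6 h its controls read 9.52, 9.29 and 9.06 against 9.17, 8.83 and 8.49 with RA, and at 12 h 9.14, 9.04 and 8.87 against 8.75, 9.22 and 8.46. At 24 h they read 8.95, 9.46, 9.34 and 9.18 against 8.81, 8.77, 9.05 and 9.18, and after 48 h 10.04, 9.56, 9.16 and 9.12 against 9.34, 8.64 and 8.76. The arms overlapped at each time, but RA was lower in 12 of 13 pairs, by -0.37 on average (adjusted p = 0.00222 with the pair block, 0.202 with groups alone, and 0.00219 to 0.386 over 12 alternatives). The 2 dimmer Ncam1 probe sets gave 0.02 and -0.16 with groups alone.

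Mcam, an adhesion receptor of endothelium and of melanoma, read 9.40, 9.53 and 9.11 in the 6 h controls and 8.81, 8.83 and 8.70 in the 6 h RA arrays. The 2 groups did not overlap, as was so for 8.29% of all probe sets in that direction, and the difference was -0.57 (SE 0.26, adjusted p = 1.00 with groups alone and 0.0445 with the pair block, 0.0445 to 1.00 over 12 alternatives). That made 1 of 49 members lower at 6 h with the pair block, where 0.62% of all probe sets were lower. At 12, 24 and 48 h the Mcam differences were -0.06, -0.31 and -0.43. Over the 4 times Mcam was lower in 12 of 13 pairs, by -0.31 on average (adjusted p = 0.00619 with the pair block, 0.433 with groups alone).

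Itgav was lower in 12 of 13 pairs, by -0.34 on average (adjusted p = 0.00432 with the pair block, 0.875 with groups alone). At 24 h its controls read 10.59, 10.37, 10.61 and 10.71 and its RA arrays 9.89, 9.53, 10.50 and 10.31, lower in each of the 4 pairs although the arms overlapped (-0.51, SE 0.25, adjusted p = 0.0446 with the pair block, where 0.185% of all probe sets were lower, and 1.00 with groups alone). The brightest Itgav probe set carries the suffix by which the maker marks probes shared with other sequences, and the 2 other Itgav probe sets gave -0.18 and -0.08 for the mean with groups alone.

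Itga6, a laminin receptor chain, was lower in 11 of 13 pairs, by -0.35 on average (adjusted p = 0.00899 with the pair block, 0.105 with groups alone). At 12 h its controls read 7.66, 7.41 and 7.25 and its RA arrays 6.99, 7.21 and 6.82, with no overlap, as for 4.5% of all probe sets in that direction, and the difference of -0.43 did not pass (SE 0.20, adjusted p = 1.00 with groups alone and 0.451 with the pair block). At 48 h it read 7.30, 7.07, 7.13 and 6.50 in controls and 6.44, 6.82 and 5.96 in RA arrays, a difference of -0.59 that did not pass (SE 0.19, adjusted p = 0.487 with groups alone and 0.0859 with the pair block). The mean difference passed with groups alone without 48 h control 4 (adjusted p = 0.0217) or without 48 h RA 2 (0.0275).

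Alcam, which binds Cd6 and itself, was lower in 11 of 13 pairs, by -0.37 on average (adjusted p = 0.0162 with the pair block, 0.450 with groups alone). Its signal was low, with a mean of 5.06 over all arrays, just above the 25th percentile of 5.02. Its RA means of 4.98, 4.30 and 4.94 at 6, 12 and 24 h and its control mean of 4.93 at 12 h lay below that bound. At 12 h its controls read 4.70, 5.27 and 4.83 and its RA arrays 4.36, 4.07 and 4.47, with no overlap, as for 4.5% of all probe sets in that direction, and the difference of -0.63 did not pass. Cdh6 was lower in 10 of 13 pairs, by -0.28 on average (adjusted p = 0.0238 with the pair block, 0.295 with groups alone), with -0.57 at 6 h, where the arms did not overlap, as for 8.29% of all probe sets in that direction. Cdh11 was lower in 12 of 13 pairs, by -0.26 on average (adjusted p = 0.0473 with the pair block, 0.999 with groups alone).

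**Figure D4:**
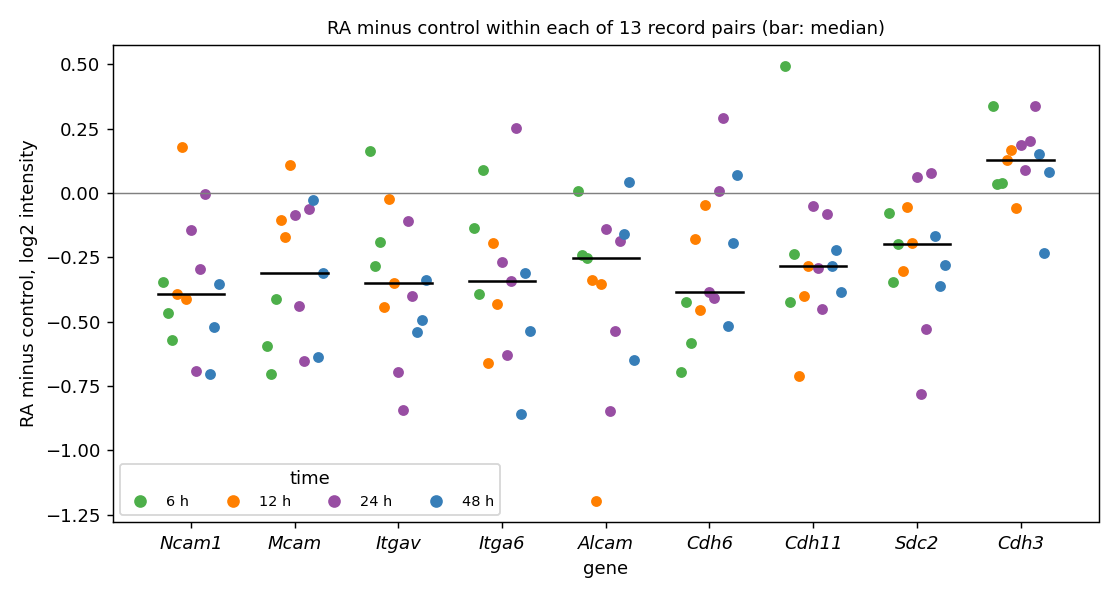
RA minus control in log2 intensity within each of 13 record pairs, for 9 genes, coloured by time, with the median as a bar. For Ncam1, Mcam, Itgav and Cdh11, 12 of 13 pairs lie below 0, and for Cdh3, which did not pass, 11 of 13 lie above it.

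Other ways of blocking gave fewer calls. For the mean RA difference 5 members were lower with scan day as a block, where 1.23% of all probe sets were lower, and 4 with the replicate number as a block, where 0.66% were. Ncam1, Mcam and Itga6 passed in all 5 block fits, Alcam in 4, Cdh6 in 3, Itgav in 2, and Cdh11 in 1. Sdc2, lower in 11 of 13 pairs, passed in 1 of 5, with record pair as a random block (adjusted p = 0.0290, and 0.0653 with the pair as a fixed block). Counted by direction alone, 10 of 49 members (20.4%) were lower with RA in at least 10 of 13 pairs, where 8.14% of all probe sets were, and 3 were higher in at least 10, where 6.48% were.

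RA was higher in 11 of 13 pairs for Cdh3 and for the dim Itgae. At 24 h the Cdh3 controls read 7.19, 7.30, 7.16 and 7.19 and its RA arrays 7.38, 7.39, 7.36 and 7.53, with no overlap, as for 1.39% of all probe sets in that direction. The difference of 0.20 (SE 0.09) did not pass (adjusted p = 1.00 with groups alone and 0.606 with the pair block). Itgb5 and Sdc4, the members that moved with time, differed by -0.24 and -0.27 on average between RA and control with groups alone. Neither passed in that fit or with the pair block (adjusted p = 0.162 and 0.470 with the latter).

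Nrp1 was the member with the widest spread but for Sdc4, with an SD of 0.84 over the 27 arrays. At 6 h its controls read 8.82, 8.52 and 8.43 against 8.65, 8.26 and 7.89 with RA, and at 12 h 7.41, 7.91 and 7.85 against 8.32, 9.46 and 8.16. After 24 h the Nrp1 controls read 7.93, 9.88, 8.11 and 7.39 against 8.24, 10.01, 8.41 and 8.29 with RA, and after 48 h 9.04, 10.92, 9.07 and 7.77 against 8.05, 9.52 and 7.70. The arms did not overlap at 12 h, with RA higher, as for 4.49% of all probe sets.

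The Nrp1 differences of -0.32, 0.92, 0.41 and -0.78 at the 4 times did not pass with groups alone, and neither did their variation with time (F = 1.52, adjusted p = 1.00 with groups alone, 0.0505 to 1.00 over 12 alternatives). RA was higher in all 3 pairs at 12 h, in all 4 at 24 h, in 0 of 3 after 6 h of exposure and in 1 of 3 after 48 h. The 48 h difference was -0.21 without control 2, which reads 10.92 and has no partner, and also -0.21 with the pair block (adjusted p = 0.886). It was -1.26 with the replicate block (adjusted p = 0.00617), although numbers were not read as pairs at 48 h. The highest value of both arms at 24 h belongs to the array number 2, from the separate scan day. A second Nrp1 probe set gave 0.04, 0.32, 0.24 and 0.00, with no change of sign. From 6 to 12 h in controls the brighter Nrp1 probe set differed by -0.87 (adjusted p = 0.560) and the second by 0.27. Of 17 measured semaphorins, vascular growth factors and plexins 0 passed with RA at 48 h or in the mean with groups alone. From 6 to 48 h in controls 2 were higher, Vegfa (0.60, adjusted p = 0.0154) and Sema3e (0.66, adjusted p = 0.0112), and 0 lower. Of all probe sets 4.23% were higher and 5.29% lower. The differences of the 17 ran from -0.39 to 0.66, with a median of 0.17.

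**Figure D5:**
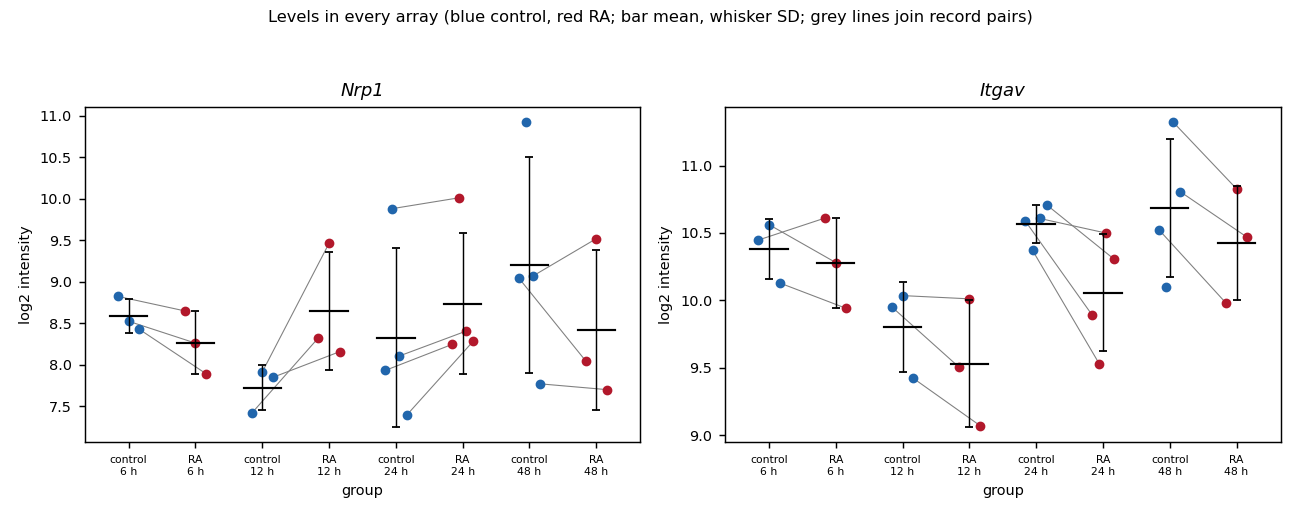
Log2 intensity of Nrp1 and Itgav in every array by group, with the mean as a bar, the SD as a whisker and grey lines between the arrays of a record pair. Nrp1 lines run upward at 12 and 24 h and mostly downward at 6 and 48 h, and Itgav lines run downward in 12 of 13 pairs.

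At 48 h the Sdc2 arms did not overlap, with RA lower, as for 0.765% of all probe sets, and its differences of -0.29 at 24 h and -0.26 at 48 h did not pass. A second Sdc2 probe set was dim, with a mean of 3.45. Further RA differences with an unadjusted p below 0.05 were those of Itga5 at 6 h (-0.32), Itgb2 at 12 h (0.27), Cdh15 and Cdh9 at 48 h (-0.42 and -0.27) and Ncam1 at 48 h (-0.56). None passed with groups alone or with the pair block. Itga7 at 6 h (0.25) and Cdh5, VE-cadherin of endothelium, at 12 h (-0.31) did not pass either.

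The proteins around these receptors were read from lists of ligands and partners. Of 26 measured matrix ligands 8 were higher and 0 lower in the 48 h than in the 6 h controls, where 4.23% of all probe sets were higher and 5.29% lower. Among them were the laminin chains Lama2 (1.30, adjusted p = 6.24e-06) and Lamb1 (0.85, adjusted p = 0.000213) and the basement membrane linker Nid2 (1.27, adjusted p = 0.00174). The list's median difference was 0.33, where that of all probe sets was 0.07. With RA at 48 h, 2 of the 26 were lower, where 0.0403% of all probe sets were: Vcam1, a ligand of the alpha 4 chain (-1.70, adjusted p = 0.00438), and Lama2 (-0.74, adjusted p = 0.0163).

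Inside the cell, 2 of 21 genes of the integrin adhesion machinery were higher and 1 lower from 6 to 48 h in controls, where 9.52% of all probe sets passed. They were Lims1 (0.52, adjusted p = 0.0400), the adaptor of integrin-linked kinase, Tln1 (0.50, adjusted p = 0.0479), talin that binds integrin tails, and the tetraspanin Cd9 (-0.59, adjusted p = 0.0242). Of 15 catenin and desmosome genes 2 passed, against the same 9.52%. Ctnna1, which links cadherins to actin, was higher (0.48, adjusted p = 0.00759) and Pkp4, a catenin relative, lower (-0.77, adjusted p = 0.00215). Of 13 genes of cadherin repression and epithelial to mesenchymal transition, 0 passed from 6 to 48 h, and the cadherin repressor Snai1 was lower at 12 than at 6 h (-0.59, adjusted p = 0.0142). With RA at 48 h and in the mean over times, 0 genes of these 3 lists passed with groups alone.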

How the data were processed

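The 27 arrays were read as deposited linear intensity values, which the authors made with RMA Express 0.2 per the labels' descriptions. RMA corrects background, normalises by quantiles and summarises probes. GeneSpring is named as a later step, with no word on whether it altered the values. Log2 was taken once. Of 12488 probe sets 66 control probe sets were left out. Genes were named from the platform annotation: 10833 probe sets carry 1 symbol, 396 several and 1193 none.

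All 12422 other probe sets were fitted in limma 3.58.1 (R 4.3.3) as 1 model over 8 group means with no block, 19 residual degrees of freedom, moderated two-sided tests and Benjamini-Hochberg adjustment within a comparison. A member passed at an adjusted p below 0.05. Figures were drawn with Python 3.11.15 and matplotlib 3.10.9. Promoters came from RefSeq.

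Control and RA arrays of equal replicate number deviated together, with every correlation above 0.1, at 6 h (0.447 to 0.470) and 24 h (0.229 to 0.622), and not at 12 h (-0.05 to 0.257) or 48 h (-0.308 to 0.670). Scan days came from the scanner records. The alternatives were blocks for replicate number, scan day and record pair, further normalisation, a filter on dim probe sets, other variance models, array weights, the label of 48 h control 3, all probe sets of a gene, and each array left out. Members, lists and named genes (those past the threshold, the 4 smallest p values where fewer passed with RA, and 2 per family without a call) were chosen with earlier results of these data known. The mean RA differences of Mcam, Alcam, Itgav, Cdh11 and Itgb5 were added for the block fits after their values were seen. So were Cdh2, the 12 to 24 h step of Itgav, and the Nrp1 differences with RA at 12 and 48 h and from 6 to 12 h. Cdh3 and Nrp1 met the rule in other comparisons, and the further values given for them were chosen after being seen.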

Additional observations from a re-analysis of the deposited data

Results flagged for a closer look

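In groups of 4 arrays the highest or lowest array was flagged where its gap to the nearest of the others exceeded 0.829 of the range. Of 147 combinations of member and group 11 (7.48%) were flagged, and chance flags about 1 in 20. On the 24 h arrays of the separate scan day, control 2 stood high for Sdc4 (7.76, others 6.16 to 6.35) and Icam2 (6.19, others 5.79 to 5.84), and RA 2 stood high for Nrp1 (10.01, others 8.24 to 8.41) and low for Cdh11 (5.16, others 6.08 to 6.13). Control 3 at 24 h stood high for Cdh10 (4.77, others 4.18 to 4.21) and low for Cdh5 (5.24, others 5.34 to 5.35). Among the RA arrays at 24 h, RA 4 stood high for Cdh3 (7.53), RA 3 high for Pcdh7 (6.95) and RA 1 low for Ncam2 (4.34). At 48 h, control 3, the array with the conflicting labels, stood low for Itga5 (5.22, others 5.48 to 5.51) and high for Itgb7 (7.70, others 7.28 to 7.32). With this array grouped with RA, 0 members passed for RA against control at 48 h, as with it among the controls.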

How the results depend on the processing

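The Sdc4 differences in controls passed under every alternative run. For the mean RA difference the count of 0 members became 4 with the replicate block, 5 with the scan day block, 7 with the record pair block, 4 with scan day and 6 with record pair as a random block, all lower. At 6 h it became 1 with the scan day or record pair block, at 24 h 1 with the record pair block, and at 48 h 2 (Ncam1 and Nrp1) with the replicate block, although numbers were not read as pairs there. For 12 against 6 h controls the count of 2 became 1 with scan day as a random block or cyclic loess, 4 with only these groups in the fit and 8 with array weights. For 24 against 12 h it became 1 with scan day as a fixed or random block and 2 with array weights. For 48 against 6 h the count of 7 became 1 with scan day as a random block or only these groups, and 3 with cyclic loess, array weights or 48 h control 3 grouped with RA. In the RA arrays the count of 2 became 1 with only these groups, and 4 with array weights or 48 h control 3 grouped with RA. Without 1 array, counts ran from 0 to 1 for the mean RA difference, 1 to 2 for 12 against 6 h, 1 to 8 for 48 against 6 h (1 without 6 h control 2) and 0 to 4 in the RA arrays (0 without RA 6 h replicate 1). With the replicate block the 48 against 6 h count in controls was 6. With record pair as a random block 4 members were higher and 2 lower, and the Cdh3 call was lost (adjusted p = 0.0611). Median centring lost the control calls of Itgb5 and Cdh15 (adjusted p = 0.0564 and 0.0712). A robust fit with an intensity trend lost that of Cdh3 (adjusted p = 0.0519). Leaving out both 24 h arrays of the separate scan day, chosen after seeing the data, moved no count. The RA difference of Cdh9 at 48 h turned from -0.27 to 0.0602 with control 3 grouped with RA. The 48 against 6 h difference of Cd44 in controls turned from 0.06 to -0.0212 with cyclic loess, and ran from -0.00714 to 0.122 without 1 array, negative without 48 h control 4. The cause of these shifts was not tested. A scan day or record pair block could not be fitted for 48 against 6 h or 12 against 6 h, and low signal limits what 14 dim members can show.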
